A study of Mus musculus with 2 samples.

Results

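The ribosome of the cytosol is built from a small and a large subunit, each an RNA scaffold covered by ribosomal proteins, and the mRNAs for these proteins are among the most abundant in a growing cell. Their amounts are usually held together because the proteins are needed in matching numbers, and many of the mRNAs start with a run of pyrimidines, the terminal oligopyrimidine (TOP) element, through which mTORC1 and LARP1 set their translation and stability. Maturing neutrophils are known for losing ribosomes and RNA, whereas progenitors and proliferating cells carry many of them. Dabrafenib is a BRAF inhibitor, and the kinase GCN2, which is studied in these cultures, is activated by uncharged tRNA and by stalled ribosomes and acts on translation initiation.

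The cytosolic ribosomal protein genes were taken as every feature whose symbol is Rpl or Rps followed by a number, with an a, x, y or l ending allowed, together with Rplp0, Rplp1, Rplp2 and Rpsa. This gave 83 of 32285 features, 32 of the small subunit and 51 of the large subunit, spread over 19 chromosomes. A total of 82 members had UMIs (unique molecular identifiers, each counting 1 captured mRNA molecule) in both libraries, and Rpl10l had none in either. The symbol rule also takes in l-suffixed paralogs such as Rps27l and Rpl22l1, and leaves out others, such as Fau and Rack1, whose products also sit in the ribosome.

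The mice were C57BL/6 females, 10 weeks old, and their bone marrow was cultured for 4 days with GM-CSF at 50 ng/mL and as much IL-6. This gives myeloid-derived suppressor cells (MDSC), a mixture of immature granulocytic and monocytic cells. The DAB culture also held 1.5 µM dabrafenib and the DMSO culture the matching volume of solvent, and 1 single-cell library was made from each, so no difference between them has a replicate check and no test was made. The 95% intervals cover counting error only. After filtering, 10476 DAB and 9032 DMSO cells held 140403561 and 92237070 UMIs, with medians of 9442 and 7501.5 UMIs a cell, and 152 cell barcodes occurred in both libraries. Cells were grouped into 28 clusters without use of the ribosomal protein genes, of which 13 took a class name from marker genes, and 5 classes held at least 200 cells in each library.

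A TOP element begins at the start of transcription, so the sequence around the annotated start is shown for the members that the results turn on. RefSeq start sequences (GRCm38.p6, the assembly behind the mm10 build of the files) were found for 63 of the 83 members. Each line gives 20 bases before and 10 bases after the annotated start, 5′ to 3′ on the gene's strand, with the longest run of C and T in capitals. Of the first 4, Rpl13 and Rplp2 are abundant members, and Rpl7a and Rps27 were among the lowest in DAB. The last 4 are paralogs that departed from the others and Rack1, a ribosome-bound scaffold protein.
Rpl13 (chr8:123102330-123102359, + strand): gtcaCTTCCCTTTCgcctgattttgattgg
Rplp2 (chr7:141447631-141447660, + strand): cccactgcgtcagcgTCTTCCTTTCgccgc
Rpl7a (chr2:26910787-26910816, + strand): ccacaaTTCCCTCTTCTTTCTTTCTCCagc
Rps27 (chr3:90213639-90213668, - strand): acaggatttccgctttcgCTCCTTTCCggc
Rps27l (chr9:66946066-66946095, + strand): cctctccaCTCCTCCCCgccgcctctatcc
Rpl22l1 (chr3:28805488-28805517, + strand): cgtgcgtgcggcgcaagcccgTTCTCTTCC
Rpl7l1 (chr17:46782647-46782676, - strand): gCCCggtgaggctgcgcaagcgcagtagct
Rack1 (chr11:48800340-48800369, + strand): tccggcggaggccgCTCTTTCTTTTTCTCC

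The run in Rpl7a was 21 bases long and that in Rack1 16, whereas the longest run in Rpl7l1 was 3 bases. Abundant members not shown above also had short runs, of 3 bases in Rpl41, 4 in Rpsa and 5 in Rps16 and Rplp0. The first 4 lines, with runs of at least 9 bases, therefore do not stand for all members. In Rpl13 and Rps27l the run ended before the annotated start, outside the annotated mRNA. The length of a run in this window, long or short, therefore does not show whether a TOP element is present. A run of at least 8 bases lay in this window in 28 of the 63 members (44.4%), against 14.5% of 27025 genes with a RefSeq start. In the wider promoter sequence of 250 bases before and 50 after the start, searched on both strands, CCGGAAG, a match to the ETS family motif, occurred in 41.3% of the members and 9.93% of all genes. AAGATGG, a match to YY1, occurred in 15.9% against 7.28%, GGGCGG, a match to SP1, in 61.9% against 38.2%, and TATAAA in 11.1% against 15.7%. These are descriptions of letters in a window around annotated starts and not mapped binding sites.

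Over all cells the ribosomal protein genes took a like share of both libraries. Their UMIs made up 20.4% of the DMSO library and 21.4% of the DAB library, a log2 ratio of 0.06 (95% interval 0.06 to 0.07). The median share per cell was in the other order, 18.8% in DMSO and 17.3% in DAB. The sum weighs cells by their UMIs and the median does not, so the direction over the whole culture depended on this choice. It was -0.040 on the log2 scale with cells weighed equally and -0.18 in cells of 2000 to 8000 UMIs.

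Few members differed between the libraries in the sum over all cells. The median log2 ratio of DAB over DMSO was 0.07 over 82 members, beside -0.02 over the 16377 genes tested (at least 20 UMIs). With a log2 ratio of at least 0.5 and an interval without 0 as the rule, 1 member was higher and 1 lower, whereas 13.7% of all genes were higher and 16.7% lower. The small-subunit members had a median of 0.09 and the large-subunit members of 0.05. In all, 53 members were higher and 26 lower with an interval without 0, whatever the size of the ratio. Most ratios were thus small but measured with little counting error. The shares of all genes under this looser rule are not given, so the looser counts have no background beside them.

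The members with the most UMIs were Rpl13, Rpl41, Rpl32, Rplp1 and Rpsa. A UMI stands for 1 molecule whatever the length of the mRNA, so levels of genes can be set side by side as counts per 1000000 UMIs (CPM). Rpl13, a large-subunit protein, had 6137 CPM in DMSO and 6112 in DAB (log2 ratio -0.01). Rpl41, the shortest ribosomal protein, had 5360 and 5629 CPM, and Rpl32 had 4750 and 5184. Rpsa, the laminin-receptor-related protein of the small subunit, had 4931 and 4734 CPM (log2 ratio -0.06). A total of 70 members were at 1000 CPM or more in both libraries, and 74 in DMSO and 75 in DAB were among the 200 most abundant genes.

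The stalk proteins, which recruit the elongation factors to the large subunit, were all higher in DAB over all cells. Rplp1 had 4097 CPM in DMSO and 5328 in DAB (log2 ratio 0.38, 0.37 to 0.38), Rplp0 had 3578 and 4316 (0.27), and Rplp2 had 2103 and 2354 (0.16). Rpl12, which binds the ribosome at the base of the stalk, had 1380 CPM in DMSO and 1700 in DAB (log2 ratio 0.30). Rps12 of the small subunit had 3133 and 3770 CPM (0.27). None of these reached the log2 ratio of 0.5.

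The 1 member lower by the rule was Rpl39l, a paralog of Rpl39 with 104 UMIs in DMSO and 60 in DAB. Among members with at least 200 UMIs in each library, the lowest was Rpl7a with 1843 CPM in DMSO and 1448 in DAB (log2 ratio -0.35, -0.36 to -0.34), followed by Rpl24 with 2125 and 1853 CPM (-0.20) and Rps27 with 1415 and 1251 CPM (-0.18). Rpl36 (-0.14) and Rpl7 (-0.13) came next. Rpl7a was 1 of the 2 lowest members with at least 200 UMIs in both libraries together in 5 of the classes described below.

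The share depended strongly on the kind of cell. B cell-like cells, few in these cultures (141 in DMSO and 188 in DAB), had the highest share of the named classes, 37.4% in DMSO and 37.0% in DAB. Granulocyte progenitor-like cells, which make Elane, Prtn3 and Mpo, had 26.7% and 27.4%. Mature monocyte-like cells, with MHC class II genes, had 24.8% and 27.4%, and immature monocyte-like cells had 22.3% and 23.1%. The granulocytes were at the lower end, with 16.3% and 14.7% in chemokine-high cells and 12.8% and 15.05% in intermediate granulocyte-like cells, which make the granule proteins Camp, Ltf and Ngp. Mature polymorphonuclear (PMN)-like cells, led by Csf3r, Fpr1 and Mmp9, were near the monocytes in DMSO at 20.5% but near the other granulocytes in DAB at 13.6%.

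**Figure D1:**
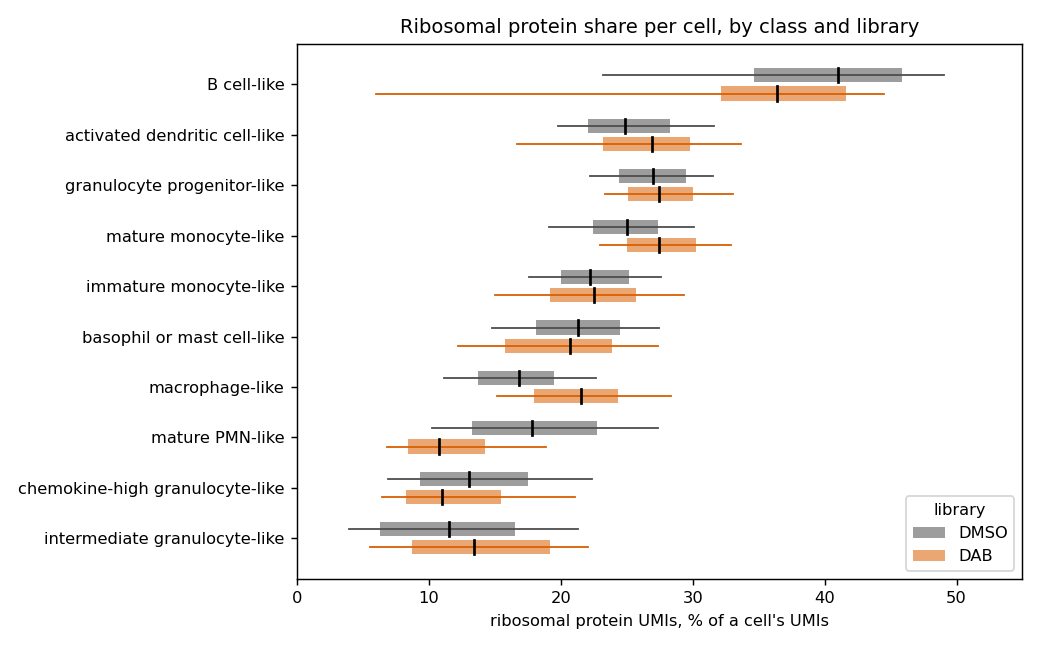
Ribosomal protein UMIs as a percent of each cell's UMIs (horizontal axis) for 10 marker-named classes (vertical axis) in the DMSO and DAB libraries. Boxes span the quartiles, black lines mark medians and thin lines run from the 10th to the 90th percentile of cells. The medians of mature PMN-like cells were 17.8% in DMSO and 10.8% in DAB.

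Set against all other cells of the same library, the B cell-like class had the members highest. The median log2 ratio was 0.84 in DMSO and 0.80 in DAB. At least 2-fold higher were 21 of 82 members in DMSO and 12 in DAB, beside 9.91% and 12.5% of all genes. The DAB count was thus near the share of all genes. Rps27, a zinc-binding small-subunit protein, led them with 4337 CPM in the B cell-like cells of DMSO and 1393 in the other cells (log2 ratio 1.64), and with 4151 and 1229 CPM in DAB (1.76). Rps24 had 11074 against 4149 CPM in DMSO (1.42) and 11605 against 4547 in DAB (1.35). Rps27l went the other way, with 157 against 409 CPM in DMSO (-1.38). These genes and the others named by class against the other cells were chosen after their values were seen.

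In mature PMN-like cells the ribosomal protein genes were lower in DAB nearly as a block. This class held 1286 DMSO and 1781 DAB cells, and its ribosomal protein share of 20.5% in DMSO and 13.6% in DAB gave a log2 ratio of -0.59 (-0.59 to -0.59), which is 1.50-fold lower. The median cell had 558.5 ribosomal protein UMIs in DMSO and 327 in DAB, while its other UMIs were 2721 and 2994. By the rule of a log2 ratio of 0.5, 58 of 81 members were lower and 3 higher, beside 10.2% and 20% of the 10788 genes tested. The median over members was -0.60 beside 0.14 over all genes. Only 4 of the 81 had a ratio above 0, beside 60.7% of all genes. The number of lower members depended on how the cells were grouped. It was 17 with the ribosomal protein genes kept in the clustering and 14 with every cluster given its nearest class. Without alignment of the libraries it was 19. The medians over members were then -0.37, -0.38 and -0.41, in this order. The shares of all genes lower under these groupings are not given, so these counts have no background beside them. Small-subunit and large-subunit members had medians of -0.58 and -0.62.

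**Figure D2:**
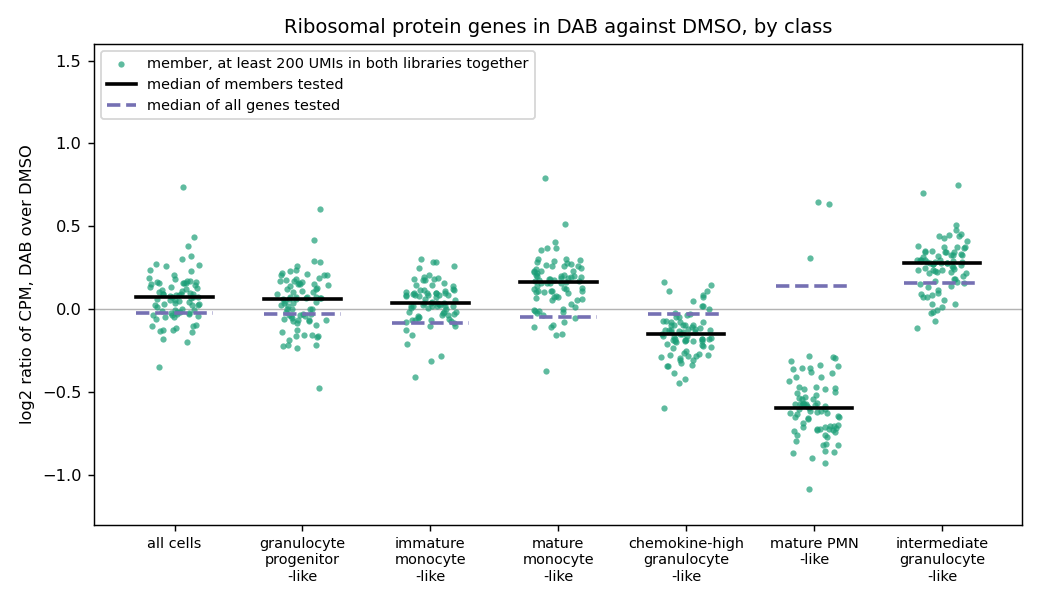
Log2 ratio of CPM in DAB over DMSO (vertical axis) for each ribosomal protein gene with at least 200 UMIs in both libraries together, over all cells and in 6 classes (horizontal axis). Black lines are the medians of the members tested and dashed lines those of all genes tested; in mature PMN-like cells these are -0.60 and 0.14.

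Among the members in mature PMN-like cells, Rpl22l1 and Rpl7a had the lowest ratios. Rpl22l1, a paralog of Rpl22, had 172 CPM in DMSO and 80.9 in DAB (log2 ratio -1.09, -1.24 to -0.93). Rpl7a had 1953 and 1025 CPM (-0.93, -0.97 to -0.89). The next were Rps4x (2784 and 1495 CPM, -0.90) and Rpl39 (2475 and 1358 CPM, -0.87). Rpl13, the most abundant member, had 6460 and 3876 CPM (-0.74), and Rpsa 4306 and 2543 (-0.76).

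Of the stalk members, Rplp2 at 2414 and 1976 CPM (log2 ratio -0.29) and Rplp0 at 3868 and 3116 (-0.31) lay closer to even in these cells. Rplp1, at 3716 and 2502 CPM (-0.57), lay near the median over members of -0.60. Among the exceptions above 0 were Rps27l with 376 and 590 CPM (0.65, 0.57 to 0.73) and Rpl7l1 with 39.99 and 62.1 CPM (0.63, 0.40 to 0.88). Rpl3l, a striated-muscle paralog of Rpl3, was also higher but rested on 13 UMIs in DMSO and 53 in DAB. Rpl39l, with 2 and 4 UMIs and an interval from -2.19 to 4.07, had too few UMIs to be among the 81 members tested. It is therefore not among the 4 members above 0. The remaining member above 0, not named here, had a log2 ratio of at least 0.25 and an interval without 0.

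**Figure D3:**
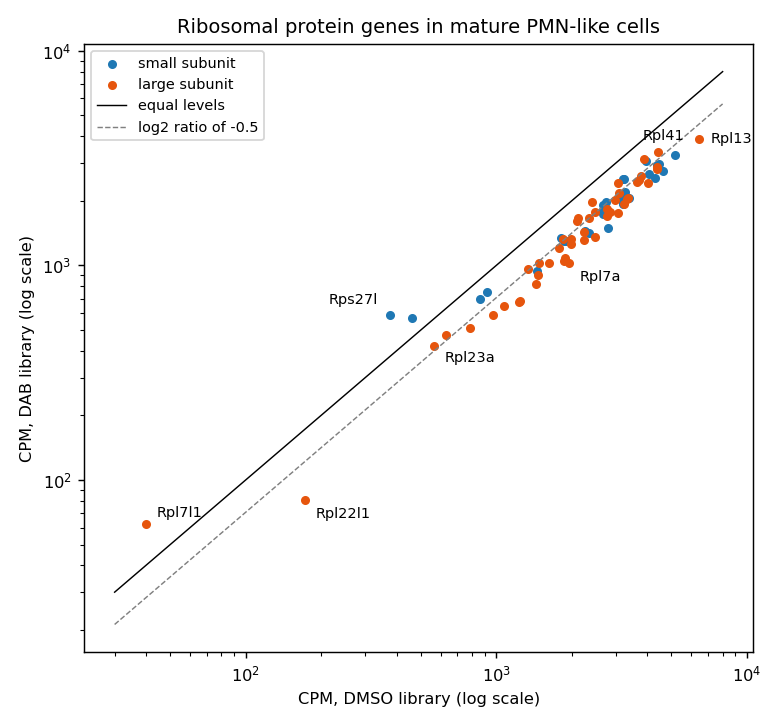
Level in mature PMN-like cells of each ribosomal protein gene with at least 200 UMIs in both libraries together, by subunit. Axes give CPM in the DMSO library (horizontal, log scale) and in the DAB library (vertical, log scale). The solid line marks equal levels and the dashed line a log2 ratio of -0.5. Of the points above equality, Rps27l and Rpl7l1 have the highest ratios.

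The lower share was found in both clusters that made up the class. Cluster A (1070 DMSO and 977 DAB cells) had 20.8% in DMSO and 13.03% in DAB, with 65 of 81 members lower beside 9.71% of all genes. Cluster H (216 and 804 cells) had 19.6% in DMSO and 14.2% in DAB, with 37 of 81 members lower beside 6.62% of all genes. The difference was also present at matched depth. In cells of 2000 to 4000 UMIs the share was 16.9% in 602 DMSO cells and 10.5% in 997 DAB cells, and in cells of 8000 to 16000 UMIs it was 25.4% in 99 and 19.6% in 93 cells. Over the 5 depth ranges with at least 20 cells in each library, the log2 ratio ran from -0.68 to -0.38. Clusters Q and L, unnamed but nearest to this class by markers, differed less. Cluster Q had 20.7% in 305 DMSO cells and 19.4% in 200 DAB cells (log2 ratio -0.09). Cluster L had 18.5% in 599 and 18.9% in 115 cells (0.04).

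The same classes differed in other genes too. In mature PMN-like cells the 9 markers of that class summed to 4486 CPM in DMSO and 6814 in DAB, the 10 intermediate granulocyte markers to 4172 and 3069, and the 5 chemokine-high granulocyte markers to 4257 and 7245. All of these markers were detected in both libraries. The 7 immature monocyte markers summed to 888 CPM in DMSO and 2026 in DAB, of which Spp1, a secreted phosphoprotein, made up 539 and 1871, and the 7 mature monocyte markers to 1690 and 2343, mostly Cd74. B cell markers, which mark the class with the highest share, summed to 1.1 CPM in DMSO and 2.8 in DAB, with 2 and 3 of the 7 at 0. The transcript Gm42418, which overlaps ribosomal RNA sequence, took 2.73% of the class's UMIs in DMSO and 1.97% in DAB, and mitochondrial genes 0.59% and 0.50%. The part of these in the lower ribosomal protein share was not tested.

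The other genes of protein synthesis did not all follow the members in mature PMN-like cells. The counts below stand beside 20% of all genes higher and 10.2% lower by the rule of a log2 ratio of 0.5. Of 7 ribosomal protein genes and copies of them that the symbol rule leaves out, 4 were lower by the same rule and none higher, with Fau at 9247 CPM in DMSO and 6465 in DAB (log2 ratio -0.52) and Rack1 at -0.66. Of 13 other genes with TOP mRNAs, Rack1 among them again, 6 were lower and none higher (median -0.49), among them the non-coding Gas5 (264 and 133 CPM, -0.99), Naca of the nascent polypeptide-associated complex (-0.70) and Eef1a1, which brings aminoacyl-tRNA to the ribosome (5509 and 3673 CPM, -0.58). Of the 7 genes of the elongation factor list, 2 were higher and 3 lower, with a median of -0.47. This list shares Eef1a1 and Eef2 with the TOP list, and within it Eif5a had a ratio of 0.72 and Eef1e1 of 1.28. Of 33 initiation factor genes, 5 were higher and 5 lower, and their median of 0.24 lay above the 0.14 of all genes. Eif3e, Eif3f and Eif3m, subunits of the initiation factor eIF3, were at -0.94, -0.87 and -0.78, whereas Eif3b was at 0.64. Eif3e is also in the TOP list.

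Genes that make ribosomes went the other way. Of 28 ribosome biogenesis genes, 19 were higher in DAB and 2 lower in mature PMN-like cells, beside 20% and 10.2% of all genes. Their median log2 ratio was 0.84, beside -0.60 for the ribosomal proteins and 0.14 for all genes. Nolc1, a nucleolar chaperone, had 14.2 CPM in DMSO and 37.5 in DAB (1.40), Nop58 of the box C/D snoRNPs 15.7 and 37.1 (1.24), and Bop1 of the PeBoW complex 7.19 and 18.5 (1.37). The 2 lower genes were Npm1 (606 and 406 CPM, -0.58) and Rrp1b (51.6 and 35.96 CPM, -0.52). Over all cells 23 of the 28 were higher and none lower (median 0.73). Of 78 mitochondrial ribosomal protein genes, 31 were higher and 1 lower in mature PMN-like cells (median 0.41), beside the same 20% and 10.2%. Over all cells 9 of them were higher and 2 lower (median 0.22), beside 13.7% and 16.7% of all genes.

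Regulators of ribosomal protein mRNAs had a median log2 ratio of 0.15 over 18 genes in mature PMN-like cells, with 2 higher and 1 lower beside 20% and 10.2% of all genes. Myc, which drives ribosome production, had 34.5 CPM in DMSO and 55.2 in DAB (0.68), and Mxd1, an antagonist of Myc, 280 and 148 CPM (-0.92). Mtor (0.15) and Larp1 (0.17) had intervals that held 0. Of 14 genes for stalled ribosome factors, Rack1 among them again, 4 were higher and 2 lower, beside the same shares of all genes. Eif2ak4, which encodes GCN2, had 31.1 CPM in DMSO and 17.0 in DAB (-0.87, -1.22 to -0.53), and Gtpbp2, a ribosome rescue factor, 44.6 and 75.7 CPM (0.76). Of the 4 ribosome preservation factors, 1 was higher (Ccdc124, 0.64) and 1 lower (Eef2k, -0.74, -1.44 to -0.05, on 42 and 33 UMIs), while Serbp1 was at 0.22 and Habp4 at 0.18.

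The chemokine-high granulocyte-like cells shared the direction at a smaller size. They held 389 DMSO and 1853 DAB cells, and their share was 16.3% and 14.7% (log2 ratio -0.15). A ratio above 0 was found in 11 of 81 members, beside 47.3% of all genes. By the rule of 0.5, 1 member was lower and 1 higher, beside 12.2% and 7.81% of all genes. The lower one was Rpl22l1 (246 and 162 CPM, -0.60). Cluster J held the larger part of this class in DMSO and cluster D in DAB. Within J the share was 13.4% and 10.7% with 10 members lower beside 7.91% of all genes, and within D it was 17.5% and 15.6%. All 22 proliferation genes of a fixed list were lower in the DAB cells of this class (625 and 163 CPM in sum). The same list was lower also in immature monocyte-like cells (19 of 22, 850 and 259 CPM in sum). The ribosomal protein share of those cells was 22.3% in DMSO and 23.1% in DAB. The part of these genes in the share was not tested in either class. In the 5 depth ranges with at least 20 cells in each library the log2 ratio of the share in chemokine-high cells was -0.28, -0.20, -0.31, -0.37 and, in cells of 16000 to 32000 UMIs, -0.04.

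In the monocytes and progenitors the members were even or somewhat higher in DAB. Mature monocyte-like cells (408 in DMSO and 584 in DAB) had a median log2 ratio of 0.16 over 81 members beside -0.05 for all genes, with 2 members higher and none lower beside 14.8% and 19.7% of all genes. The 2 were Rpl7l1 (34.7 and 60.1 CPM, 0.79) and Rps27l (419 and 598 CPM, 0.52). At the lower end of this class were Rpl7a (2419 and 1869 CPM, -0.37) and Rpl24 (2392 and 2145 CPM, -0.16). In 3 depth ranges with at least 20 cells in each library the ratio of the share lay between 0.16 and 0.17.

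Granulocyte progenitor-like cells (292 and 351) had a median of 0.06 beside -0.03 for all genes, with 1 member higher and none lower beside 15.6% and 17.1% of all genes. The higher one was Rpl7l1 (45.9 and 69.7 CPM, 0.60), followed by Rps27l (453 and 606 CPM, 0.42), and the lowest was Rpl7a (2696 and 1942 CPM, -0.47). Immature monocyte-like cells (1188 and 487) had a median of 0.04 beside -0.08, with 1 member higher and 1 lower beside 10.7% and 18.1% of all genes. The progenitor share had a log2 ratio of 0.11 in cells of 16000 to 32000 UMIs and 0.01 in cells of 32000 to 64000, the ranges with at least 20 cells in each library. In the immature monocytes the median was -0.23 in cells of 2000 to 8000 UMIs, and the share depended on depth. In cells of 2000 to 4000 UMIs it was 22.4% in 20 DMSO and 16.9% in 26 DAB cells, and in cells of 32000 to 64000 UMIs 21.9% in 52 and 23.9% in 42 cells.

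Intermediate granulocyte-like cells and 2 unnamed clusters led by granulocyte genes had higher shares in DAB in the sum over their cells, opposite to the mature PMN-like cells. Intermediate granulocyte-like cells (849 in DMSO and 198 in DAB) had 12.8% and 15.05%, with 4 of 81 members higher beside 24.0% of all genes. The median log2 ratio in this class was 0.28 over members and 0.16 over all genes, so genes in general also had ratios above 0. The median cell of the class held 6940 UMIs in DMSO and 12705 in DAB. At matched depth the higher share was not seen in every range, with a log2 ratio of -0.07 in cells of 4000 to 8000 UMIs, -0.04 in cells of 8000 to 16000 and 0.14 in cells of 16000 to 32000. Their proliferation genes summed to 1234 CPM in DMSO and 1817 in DAB (15 of 22 higher), their own 10 markers to 74562 and 54303 CPM, and the chemokine-high markers to 3225 and 6805. Cluster C, led by S100a9, S100a8 and Ly6g and given no class name, had 11.3% in 924 DMSO cells and 14.96% in 584 DAB cells, with 27 of 81 members higher beside 18.1% of all genes. Cluster N, led by Retnlg and Ly6g, had 8.84% in 143 and 12.7% in 442 cells, with 47 of 81 members higher beside 11.6% of all genes. Depth differed here too, with a median of 5260 UMIs in DMSO and 8325 in DAB in cluster C. In cluster N the medians were 6186 and 9108.5 UMIs. The shares of these clusters were not compared at matched depth. In cluster C the 10 intermediate granulocyte markers summed to 21706 CPM in DMSO and 13760 in DAB, and in cluster N to 42480 and 32222. The immature monocyte markers, mostly Spp1, summed to 688 and 1945 CPM in cluster C and to 1153 and 3762 in cluster N. The part of these in the shares was not tested.

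Over the 23 clusters with at least 50 cells in each library, the share was higher in DAB in 17 and lower in 6. It was at least 0.25 higher on the log2 scale in 4 and at least 0.25 lower in 3, and these 3 were A, H and J. Cluster O, led by Gm26917, stood lowest in both libraries with 6.31% and 8.93%, and its mitochondrial share of 3.97% and 4.59% was above the 1.19% and 1.30% of the whole libraries.

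**Figure D4:**
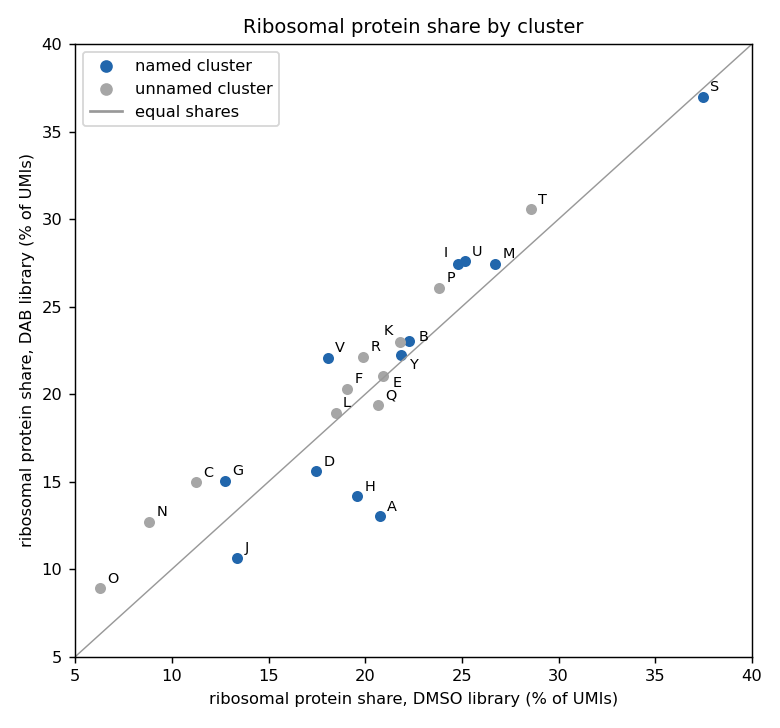
Ribosomal protein share of the UMIs of each cluster in the DMSO library (horizontal axis, percent) and in the DAB library (vertical axis, percent), for 23 clusters with at least 50 cells in each library. Blue points are clusters with a class name and the line marks equal shares; A and H, the mature PMN-like clusters, lie farthest below it.

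Across clusters most members moved with the mean of the others. As a description over clusters that share their library, each member's log2 CPM was correlated with the mean log2 CPM of the other members. The median correlation was 0.97 over 25 clusters in DMSO and 0.96 over 24 in DAB, and 76 of 81 members reached 0.8 in both. The share of other genes that reached 0.8 is not given, so this count has no background beside it. The members least like the others were Rpl3l (-0.05 and -0.32), Rpl7l1 (-0.11 and 0.07) and Rps27l (0.50 and 0.20), all paralogs by symbol. Among 10530 other genes the most alike were Gm2000 (0.97 and 0.98), Eef1b2 (0.97 and 0.96), Rpl36al, Rack1, Nsa2, Gm11808, Eif3i, Eif3e, Naca and Btf3.

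Among the paralogs, Rps27l, a target of p53 that differs from Rps27 in few residues, had the clearest pattern. Of the UMIs of the Rps27l and Rps27 pair, Rps27l took 14.3% (13.7 to 14.9) in mature PMN-like cells of DMSO and 29.0% (28.3 to 29.8) in those of DAB. In granulocyte progenitor-like cells it took 24.2% and 32.2%, in mature monocyte-like cells 21.7% and 29.5%, and in immature monocyte-like cells 25.8% and 26.7%. The extremes were macrophage-like cells, with 39.8% and 41.5%, and B cell-like cells, with 3.50% and 2.997%.

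Rpl22l1 had another pattern. It made up 29.5% of the Rpl22l1 and Rpl22 pair in granulocyte progenitor-like cells of DMSO and 29.1% in DAB, and in mature monocyte-like cells 32.1% in DAB, with an interval of 29.4% to 30.6% in DMSO. In mature PMN-like cells it made up 7.14% and 5.37%, and in chemokine-high cells 13.1% and 10.7%. The share was therefore lowest in the mature granulocytes of both libraries. Rpl7l1, a paralog of Rpl7, took 2.69% and 7.05% of its pair in mature PMN-like cells. Rpl39l had 104 UMIs in DMSO and 60 in DAB over all cells (1.13 and 0.43 CPM, log2 ratio -1.40), of which 38 and 4 were in immature monocyte-like cells. Rpl3l had 3.13 and 5.22 CPM over all cells (0.74) and was highest in activated dendritic cell-like cells, with 17.1 and 14.8 CPM.

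**Figure D5:**
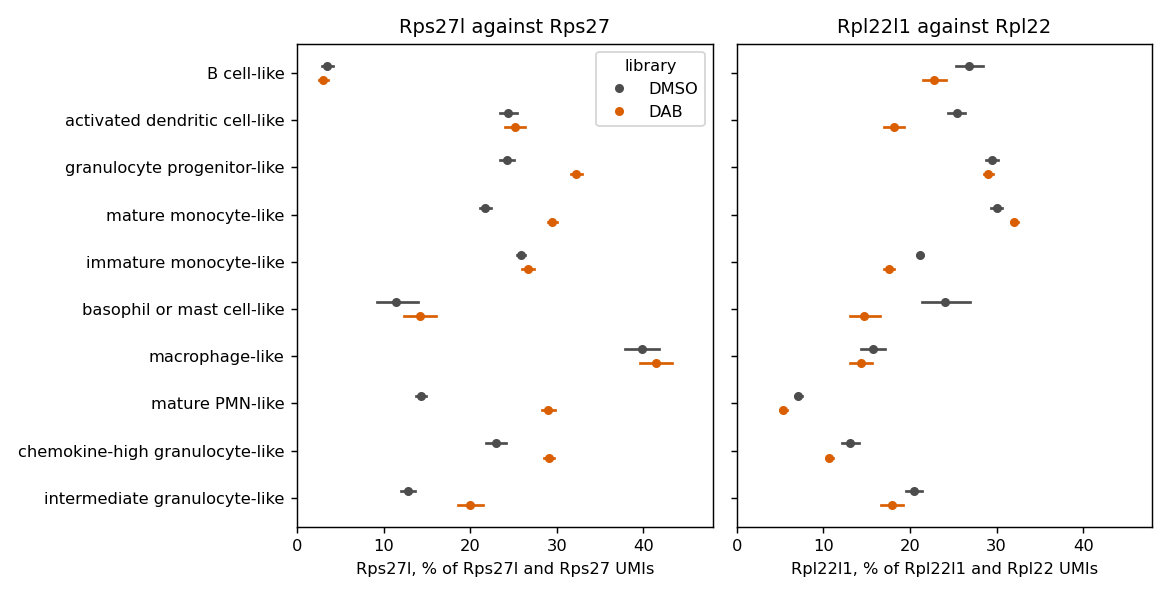
UMIs of Rps27l as a percent of Rps27l and Rps27 (left) and of Rpl22l1 as a percent of Rpl22l1 and Rpl22 (right), in 10 classes of the DMSO and DAB libraries. Points are shares of summed UMIs and lines exact binomial 95% intervals; in mature PMN-like cells Rps27l took 14.3% in DMSO and 29.0% in DAB.

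Members with longer and shorter C and T runs near the start had like median ratios in mature PMN-like cells. The 28 members with a run of at least 8 bases had a median log2 ratio of -0.61 and the 34 detected members with a shorter run -0.59. Over all cells the medians were 0.07 and 0.05. Ribosomal protein genes have many near-identical processed pseudogenes, of which 5 are named among the features, so the level of any 1 member is uncertain where reads could not be placed.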

How the data were processed

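Single-cell 5′ libraries were made with the 10x Genomics v2 kit, 1 from the DAB and 1 from the DMSO culture. The deposited files hold unnormalized counts of UMIs, by gene and barcode, made by the authors with Cell Ranger 7.0.0 on mm10 per the labels (Seurat 4.3.0 and R 4.1.2 are also named there). Depth was 165506902 UMIs in 11631 DAB barcodes and 106792967 in 9855 DMSO barcodes. Barcodes over 10% mitochondrial UMIs (89 and 55), or over 4 median absolute deviations from the median in UMIs or genes (10 and 7), were removed, as were 1066 and 768 called doublets. Cells were clustered with Python 3.11.15, scikit-learn 1.9.0 and leidenalg 0.10.2 on Pearson residuals of 3000 variable genes without ribosomal protein genes, after mutual nearest neighbour alignment, at a Leiden resolution of 0.9. A cluster was named from fixed markers when at least 3, and most of those detected, were raised at least 2-fold. Its leading genes also had to hold more markers of that class than of any other. Mature PMN, intermediate and chemokine-high granulocyte names also required S100a8 or Csf3r to be higher than in the other cells. This rule was set after the clusters were seen, and names can therefore differ from those of the study. Counts were summed over cells. Log2 ratios had exact conditional binomial intervals and shares exact (Clopper-Pearson) ones at 95%; they cover counting error only. In simulated counts for the comparison over all cells, the intervals covered 95.5% of 16207 genes, and 94% of 200 genes changed by 2-fold were called. The simulation drew counts with counting error alone, so it cannot show how the intervals hold under variation between cells or cultures. Genes named were the most abundant members, those with the largest ratios over all cells (at least 200 UMIs in each library) and in each class (2 at each end), the l-suffixed paralogs, the stalk proteins and Rpsa, the members least like the others, and the related genes that the counts turn on. Members, lists and tests were chosen with earlier results of these data known. Alternatives are given at the end. No other columns of the files were used. Values of some genes that this rule would name are not reported here.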

Additional observations from a re-analysis of the deposited data

Results flagged for a closer look

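The log2 ratio of the ribosomal protein share, DAB over DMSO, went in opposite directions in different classes of cells. It was -0.59 in mature PMN-like cells and -0.15 in chemokine-high granulocyte-like cells, whereas it was 0.14 in mature monocyte-like cells. The difference between the classes was not tested, since each class had 1 library per condition. The mature PMN-like value was below 0 in both clusters of the class and in each depth range that could be compared.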

How the results depend on the processing

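No paired analysis was possible because each condition had 1 library, and no replicate could be left out. The mature PMN-like median (-0.60) stayed below 0 in every alternative. It was -0.37 with ribosomal protein genes kept in the clustering, -0.38 with every cluster given its nearest class and -0.41 without alignment. The members lower by 0.5 were then 17, 14 and 19 in place of 58, with no share of all genes given beside them. The median was -0.66 without doublet removal, -0.56 at resolution 0.5 and -0.72 with scaling by other UMIs. With median-of-ratios scaling it was -0.72, and in cells of 2000 to 8000 UMIs -0.70. This depth range, and leaving out the clusters led by Gm15564 and Gm26917, were chosen after seeing the data.

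The share over all cells (log2 ratio 0.06) was -0.040 when cells weighed the same and -0.18 in cells of 2000 to 8000 UMIs, and the member median (0.07) was -0.027 and -0.18. The share was 0.084 with scaling by other UMIs, 0.061 without doublet removal and with DAB clusters weighted by DMSO shares, and 0.060 without those 2 clusters, while median-of-ratios scaling gave a member median of 0.10. In chemokine-high cells the median (-0.15) was -0.20 without filters, -0.26 without genes that differ 2-fold, -0.11 without cell cycle regression, -0.10 with median of ratios and -0.29 in cells of 2000 to 8000 UMIs. In progenitors (0.06) it was 0.11 without filters, 0.26 and 0.17 at resolutions 0.5 and 1.5, 0.27 without alignment, 0.24 with ribosomal protein genes kept, 0.15 without genes that differ, 0.27 without cell cycle regression, 0.11 with median of ratios and -0.092 in the depth range, which held 3 DAB cells of this class, all of 4000 to 8000 UMIs, and 2 and 7 DMSO cells below and above 4000 UMIs. In immature monocyte-like cells (0.04) the same order gave 0.11, 0.11, 0.12, 0.16 and 0.10 with ribosomal protein genes kept, -0.0048 when cells weighed the same and -0.23 in the depth range. In mature monocyte-like cells (0.16) it was 0.10 at resolution 0.5, 0.089 with ribosomal protein genes kept, 0.20 without genes that differ, 0.22 with nearest classes, 0.22 with scaling by other UMIs and 0.23 with median of ratios. The cause of these shifts was not tested.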
